A study of Mus musculus with 10 samples.

Results

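The 7 genes described here, Hmgcs1, Idi1, Fdps, Fdft1, Sqle, Lss and Cyp51, encode enzymes of cholesterol synthesis. They were taken by symbol from a list, not by their values, and all 7 were found among 23258 gene symbols and were among the 11744 genes with a level of at least 1 TPM (transcripts scaled for length and to a library sum of 1000000) in at least 5 libraries. Expression was measured by RNA sequencing in green fluorescent cells sorted from the retina of C57BL/6 mice at postnatal day 6. Every animal carried the Hb9-GFP reporter, in which regulatory sequence of Hb9 (Mnx1) drives green fluorescent protein in a set of retinal ganglion cells. One group was otherwise wild-type and the other was Satb1-/-, with 5 libraries each from different litters and about 1000 cells per library. Satb1 is a chromatin organizer, and the design asks which transcripts differ when it is missing.

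Cells build cholesterol from acetyl-CoA. Hmgcs1 makes HMG-CoA, which is reduced to mevalonate and turned into isopentenyl diphosphate. Idi1 interconverts the isopentenyl and dimethylallyl forms, and Fdps joins these units into farnesyl diphosphate, which also feeds protein prenylation, dolichol and ubiquinone. Fdft1 commits farnesyl diphosphate to sterols by making squalene, Sqle adds the epoxide, Lss closes the rings to give lanosterol, and Cyp51 removes a methyl group from lanosterol. When membrane sterol falls, the transcription factor SREBP2 is released by proteolysis and raises the genes of the route together. Cholesterol does not readily cross into neural tissue from blood, so retina and brain rely largely on their own synthesis, and growing axons need it for new membrane.

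SREBP proteins act with factors bound nearby, among them NF-Y, which binds the CCAAT box, and Sp1, which binds the GC box. RefSeq promoter windows (GRCm38.p6, the same assembly as mm10), each 300 bases from 250 before to 50 after the transcription start, were matched for 4 of the 7 genes and are printed because they show what these genes share in sequence. Capitals mark matches to a sterol regulatory element (TCACNCCAC) and to the CCAAT box, on either strand, so that ATTGG is a CCAAT box on the other strand.
Hmgcs1 promoter (chr13:119690101-119690400, plus strand): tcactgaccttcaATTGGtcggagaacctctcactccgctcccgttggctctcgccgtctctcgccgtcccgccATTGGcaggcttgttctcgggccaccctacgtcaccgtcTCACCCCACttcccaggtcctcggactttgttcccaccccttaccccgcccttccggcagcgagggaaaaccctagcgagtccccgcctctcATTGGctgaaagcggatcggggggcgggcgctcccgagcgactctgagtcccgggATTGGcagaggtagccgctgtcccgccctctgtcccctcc
Idi1 promoter (chr13:8885356-8885655, plus strand): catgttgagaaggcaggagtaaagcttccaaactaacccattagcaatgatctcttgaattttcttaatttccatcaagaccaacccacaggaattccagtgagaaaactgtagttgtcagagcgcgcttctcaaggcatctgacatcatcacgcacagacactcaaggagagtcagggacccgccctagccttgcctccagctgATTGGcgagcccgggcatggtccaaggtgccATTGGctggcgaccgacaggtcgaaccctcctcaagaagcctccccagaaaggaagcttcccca
Lss promoter (chr10:76531355-76531654, plus strand): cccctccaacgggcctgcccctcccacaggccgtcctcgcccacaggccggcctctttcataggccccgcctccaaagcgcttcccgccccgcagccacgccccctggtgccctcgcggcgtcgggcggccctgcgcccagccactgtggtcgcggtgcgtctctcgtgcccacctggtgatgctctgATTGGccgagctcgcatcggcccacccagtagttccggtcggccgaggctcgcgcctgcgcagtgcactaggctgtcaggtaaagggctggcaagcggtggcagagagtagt
Cyp51 promoter (chr5:4104648-4104947, minus strand): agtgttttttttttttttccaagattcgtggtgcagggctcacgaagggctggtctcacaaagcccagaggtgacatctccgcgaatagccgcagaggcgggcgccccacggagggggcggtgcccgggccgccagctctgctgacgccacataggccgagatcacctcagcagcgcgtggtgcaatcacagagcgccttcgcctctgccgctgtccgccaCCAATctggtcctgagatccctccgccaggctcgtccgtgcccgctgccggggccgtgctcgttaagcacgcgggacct

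Each of the 4 windows held at least 1 CCAAT box, which was found in 37.4% of 32851 promoter windows of this length. It began 29 bases before the start in Cyp51, 62 before it in Lss, 45 and 14 before it in Idi1, and 237, 176 and 45 before it in Hmgcs1, which had another 11 bases after the start. A GC box (GGGCGG, either strand, not in capitals) was in all 4 windows and in 35.7% of all windows. The sterol element was found in Hmgcs1 alone, beginning 137 bases before the start and reading TCACCCCAC, and in 1.24% of all windows. The E-box form of the element (TCACGTGA, in 0.974% of all windows) was in none of the 4. A match is a description of the letters, and no match says only that the letters are not in the window.

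Ganglion cell markers were found in every library, beside markers of other cells. All 8 ganglion cell markers checked (Rbpms, Slc17a6, Sncg, Nefl, Nefm, Thy1, Pou4f2 and Isl1) were above 0 in every library. Their summed level was 14061 to 27848 TPM in wild-type libraries. In knockout 3 it was 99100 TPM, far above the other knockout libraries at 12064 to 21211 TPM. The 5 direction-selective markers summed to 534 to 1101 (wild-type) and 116 to 305 TPM (knockout), so these sums did not overlap. All 5 were lower in knockout, against 67.4% of all tested genes, at a median log2 difference of -2.24. By limma 0 were called (smallest adjusted p = 0.134) and 3 were at an unadjusted p under 0.05, against 3.31% of all tested genes. Satb1 itself stood at 38.6 to 414 (wild-type) and 24.1 to 170 TPM (knockout), so the genotypes overlapped and the gene's total does not check the labels. Glia also make cholesterol, and their markers were mixed in level. Of 6 Muller glia markers 3 were tested, and of 4 astrocyte markers 1 was tested. The Muller glia gene Rlbp1 was at most 2.28 TPM, Aqp4 at most 1.33 TPM and listed at 0 in 6 libraries, and the astrocyte gene Gfap was listed at 0 in 8 libraries, although Aldoc brought the sum of 4 astrocyte markers to 3.11 to 98.1 (wild-type) and 16.6 to 136 TPM (knockout), and the broader genes Glul and Dkk3 brought the sum of 6 Muller markers to 78.0 to 461 (wild-type) and 93.1 to 341 TPM (knockout). Microglia markers summed to 0.779 to 1225 (wild-type) and 59.1 to 2179 TPM (knockout). The 5 rod markers checked summed to 3.78 to 383 (wild-type) and 1.04 to 306 TPM (knockout), so the levels of both differed widely between libraries. Of 5 amacrine markers, which summed to 81.0 to 354 (wild-type) and 88.8 to 253 TPM (knockout), 2 were tested and both were lower in knockout, with Slc6a9 at a log2 difference of -2.09 and not called. Wild-type 5, knockout 4 and knockout 5 stood apart on the first principal component, with ribosomal protein genes at 12.1% to 13.6% of TPM against 3.87% to 8.02% in the other 7 libraries. Wild-type 4, one of those 7, stood apart on the second component, at 145 against -43.5 to -6.87 in all other libraries.

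All 7 enzyme genes were expressed in all 10 libraries, and none was listed at 0. Together they averaged 921 ± 263 TPM over wild-type libraries and 825 ± 250 over knockout libraries (SD, n = 5 each), 0.052% to 0.135% of the transcripts of a library. The median position among tested genes within a library ran from percentile 65.0 for Cyp51 to percentile 95.03 for Hmgcs1. As these are bulk samples, fewer cells of a type and less RNA per cell cannot be told apart. None of the 7 differed between genotypes beyond the spread between libraries.

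Hmgcs1 (chromosome 13, 119690379 to 119708260, plus strand, mm10, GENCODE M21) is the entry step and was the most abundant of the 7. By library, wild-type 1 to 5 measured 265, 240, 309, 270 and 94.3, while knockout 1 to 5 measured 393, 193, 263, 188 and 106 (all TPM). Library 5 was the lowest of each genotype and the highest value of all was in knockout 1, so the groups overlapped. The log2 difference, knockout minus wild-type on the log2(TPM + 1) scale, was -0.07 (SE 0.55), a ratio of 0.955 with a 95% interval of 0.431 to 2.12 (limma, Benjamini-Hochberg adjusted p over all genes = 0.992). An annotated antisense gene overlaps Hmgcs1, as one does Lss.

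Idi1 (chromosome 13, 8885501 to 8892451, plus strand), the isomerase, had the largest difference of the 7 as deposited, in the direction of higher levels in knockout. Across the libraries, wild-type 1 to 5 measured 40.5, 74.3, 68.2, 24.7 and 14.6, while knockout 1 to 5 measured 66.7, 104, 46.4, 25.6 and 80.8 (all TPM). The 3 highest values held 2 knockout libraries and 1 wild-type library, and knockout 4 was near the bottom. The log2 difference was 0.62 (SE 0.65), a ratio of 1.53 with a 95% interval of 0.601 to 3.91 (limma adjusted p = 0.992). It was 0.29 without wild-type 5, 0.41 without knockout 2 and 0.21 with library weights, where that of Sqle was larger in size at -0.48.

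Fdps (chromosome 3, 89093588 to 89101959, minus strand), which makes farnesyl diphosphate, varied more between libraries than between genotypes. By library, wild-type 1 to 5 measured 110, 82.3, 102, 470 and 304, while knockout 1 to 5 measured 287, 120, 85.4, 244 and 149 (all TPM). Wild-type 4 and 5 and knockout 1 and 4 were above 240 TPM, and the other 6 libraries were at 149 TPM or less. The log2 difference was -0.06 (SE 0.61), a ratio of 0.959 with a 95% interval of 0.396 to 2.32 (limma adjusted p = 0.994). GENCODE places 2 other genes across Fdps on its strand, so reads there may be shared.

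Fdft1 (chromosome 14, 63145150 to 63179578, minus strand), squalene synthase, had these levels by library: wild-type 1 to 5 measured 199, 171, 201, 221 and 59.7, while knockout 1 to 5 measured 136, 121, 182, 119 and 72.5 (all TPM). Wild-type 5 and knockout 5 were the lowest, and 3 wild-type libraries were above every knockout library. The log2 difference was -0.36 (SE 0.55), a ratio of 0.780 with a 95% interval of 0.35 to 1.74 (limma adjusted p = 0.992). The difference was -0.70 without wild-type 5, -0.23 without wild-type 4 and -0.18 without knockout 5. The gene span overlaps that of Ctsb on the opposite strand, and whether the counting used strand is not given in the sources used here.

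Sqle (chromosome 15, 59315077 to 59331192, plus strand), squalene epoxidase, was the steadiest of the 7. Across the libraries, wild-type 1 to 5 measured 137, 193, 96.6, 183 and 121, while knockout 1 to 5 measured 148, 132, 107, 72.0 and 85.1 (all TPM). The highest 2 values were wild-type and the lowest 2 knockout, with the others mixed. The log2 difference was -0.43 (SE 0.52), a ratio of 0.744 with a 95% interval of 0.349 to 1.59 (limma adjusted p = 0.992). It was -0.05 after median centring, -0.26 after quantile normalization and -0.20 without the 3 libraries apart.

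Lss (chromosome 10, 76531588 to 76557138, plus strand), which forms lanosterol, ranged 10.2-fold over the 10 libraries. By library, wild-type 1 to 5 measured 103, 20.4, 90.7, 158 and 25.3, while knockout 1 to 5 measured 118, 79.8, 76.5, 60.2 and 15.4 (all TPM). Low values occurred in wild-type 2 and 5 and knockout 5, so both genotypes covered nearly the same range. The log2 difference was -0.04 (SE 0.71), a ratio of 0.974 with a 95% interval of 0.347 to 2.74 (limma adjusted p = 0.998).

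Cyp51 (chromosome 5, 4081145 to 4104746, minus strand), the first step after lanosterol, had these levels by library: wild-type 1 to 5 measured 36.0, 48.2, 26.7, 24.9 and 18.6, while knockout 1 to 5 measured 55.5, 138, 25.5, 21.3 and 11.2 (all TPM). Knockout 2 stood 2.48-fold above the next library, and the other knockout libraries fell above, within and below the wild-type range. The log2 difference was 0.23 (SE 0.70), a ratio of 1.17 with a 95% interval of 0.424 to 3.24 (limma adjusted p = 0.992). It was -0.26 without knockout 2, 0.06 to 0.61 with each other library left out, and 0.81 without the 3 libraries apart. Its span overlaps that of Akap9 on the opposite strand.

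**Figure D1:**
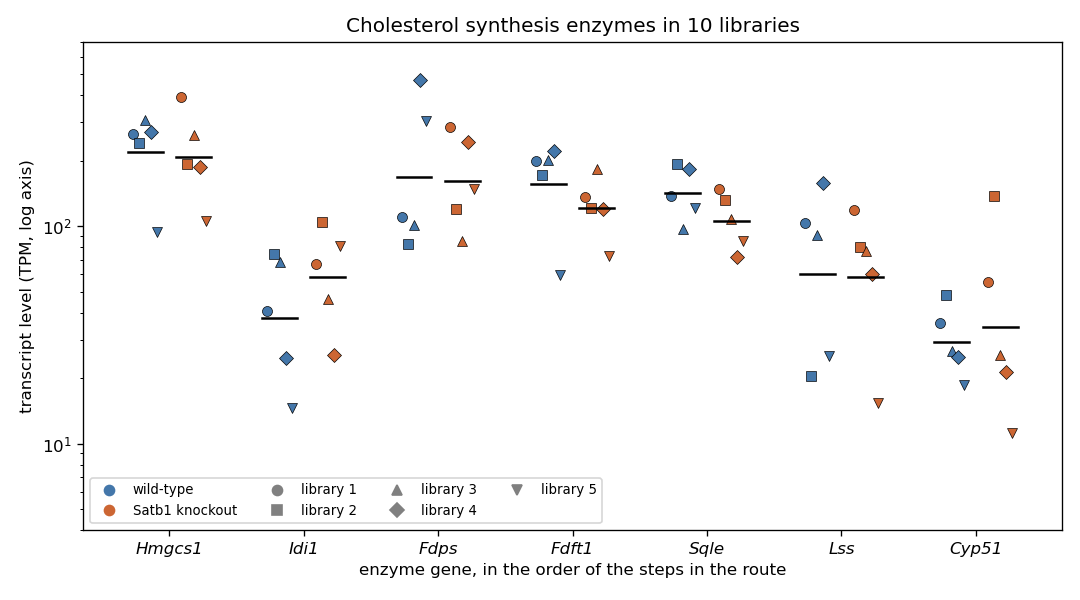
Level of each enzyme gene in TPM (log axis) in the 5 wild-type (blue) and 5 Satb1 knockout (orange) libraries. Symbols give the library number and black lines the mean on the log2(TPM + 1) scale. The genotypes overlap for all 7 genes, and Hmgcs1, Fdft1 and Cyp51 are lowest in library 5 of each genotype.

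Of the 7 genes 5 were lower and 2 higher in knockout as deposited, but only 1 was lower after median centring, 2 after quantile normalization and 3 without the 3 libraries apart, while 67.4% of all tested genes were lower as deposited. The count was 3 without wild-type 1, wild-type 3 or knockout 5 and 2 without wild-type 4. The median log2 difference of the 7 was -0.06 against -0.31 over all tested genes, and median centring moved them to 0.31 and 0.07. At an adjusted p under 0.05, limma called 0 of 7, against 0% of all tested genes. At an unadjusted p under 0.05 the counts were 0 of 7 and 3.31% of all genes (2.57% lower and 0.741% higher in knockout). The groups did not overlap for 0 of 7, against 0.502% of all genes (0.426% with knockout lower). Across the 7 genes, the 95% intervals reached from a 2.89-fold lower to a 3.91-fold higher level in knockout.

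**Figure D2:**
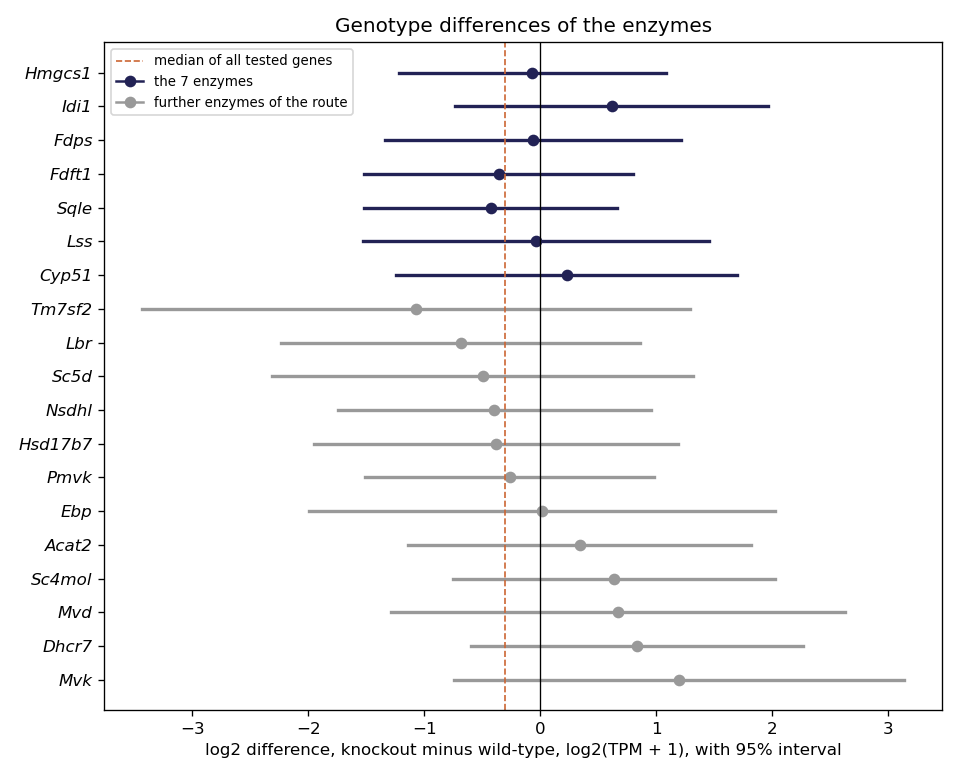
Log2 difference between knockout and wild-type on the log2(TPM + 1) scale, with its 95% interval from limma, for the 7 enzymes (dark) and 12 further enzymes of the route (grey). The dashed line is the median of all tested genes, -0.31. Every interval crosses 0.

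**Figure D3:**
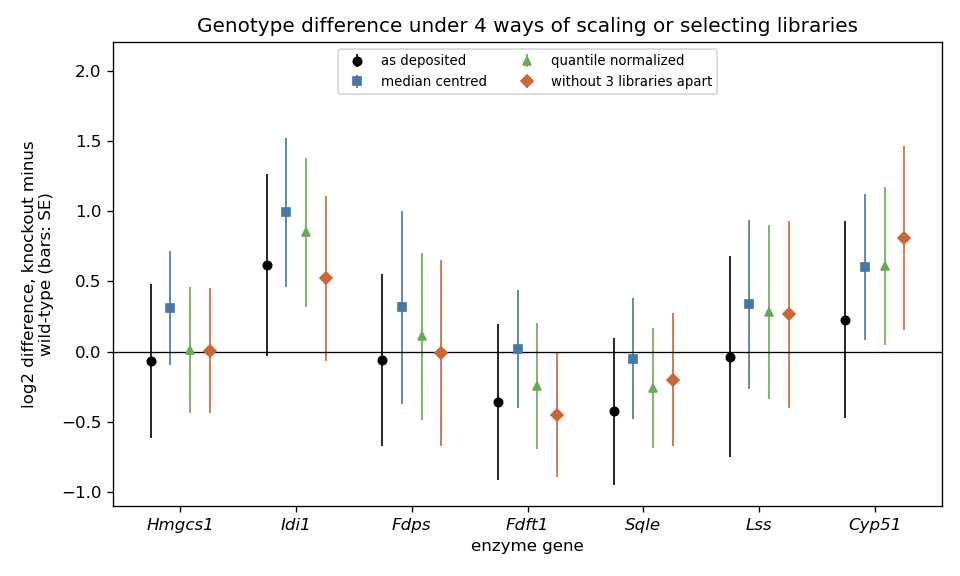
Log2 difference of each of the 7 genes, with its SE, as deposited, after median centring, after quantile normalization, and without wild-type 5, knockout 4 and knockout 5. Sqle stays below 0 and Idi1 and Cyp51 above 0 in all 4, with Sqle at -0.05 after median centring, while the others change sign.

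TPM is scaled for transcript length, and on that basis levels were set side by side across genes. Other differences between genes, such as in amplification or counting, were not tested. By the mean of log2(TPM + 1) over the 10 libraries the order was Hmgcs1, Fdps, Fdft1, Sqle, Lss, Idi1 and Cyp51. Hmgcs1 was the highest in 6 libraries and Fdps in the other 4 (wild-type 4 and 5 and knockout 4 and 5). Cyp51 was the lowest in 6 libraries. This order does not follow the order of the steps, since Idi1, which acts before Fdps, was among the lowest 2 in 8 libraries.

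Neighbours in the order mostly changed places between libraries. The within-library log2 difference was 0.38 ± 1.16 (SD, n = 10) between Hmgcs1 and Fdps, 0.26 ± 1.21 between Fdps and Fdft1 and 0.17 ± 0.61 between Fdft1 and Sqle. Each of these means is smaller than its spread. Sqle was above Lss in 10 of 10 libraries, by a difference of 1.03 ± 1.12, so the direction was constant while the size varied widely. Lss was above Idi1 in 7 of 10 libraries, by 0.33 ± 1.48, and Idi1 above Cyp51 in 7 of 10, by 0.55 ± 0.93. Some genes further apart kept their order: Hmgcs1 exceeded Fdft1 in 10 of 10 libraries, by 0.64 ± 0.33, and exceeded Cyp51 in 10 of 10, by 2.71 ± 0.89. Others did not: Fdps was above Sqle in 6 of 10 libraries, by 0.42 ± 0.95, and Lss above Cyp51 in 8, by 0.88 ± 1.18.

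**Figure D4:**
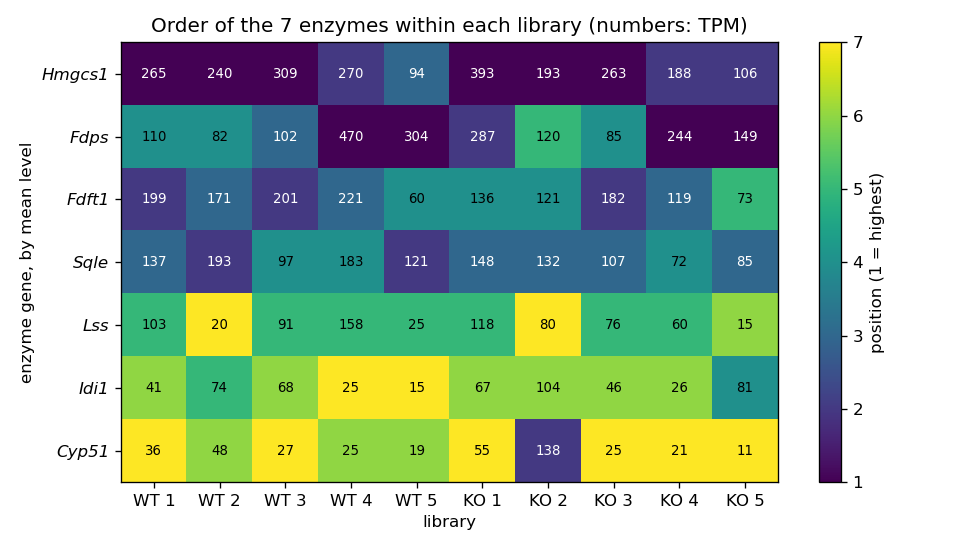
Position of each enzyme gene within each library (colour, 1 is the highest of the 7), with its TPM printed in the cell, for wild-type (WT) and knockout (KO) libraries. Hmgcs1 holds one of the first 3 positions in all 10 libraries, and Fdps is first in 4.

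The 7 genes varied less between libraries than many genes of like level. The SD of log2(TPM + 1) within a genotype was 0.42 for Sqle, 0.64 for Fdft1, 0.69 for Hmgcs1, 0.87 for Idi1, 0.93 for Fdps, 1.02 for Cyp51 and 1.19 for Lss. Over the 2687 tested genes whose mean lay between those of Cyp51 and Hmgcs1 the median SD was 1.08, so 6 of the 7 were below it. A larger SD than that of Sqle was found for 99.4% of these genes, and a larger one than that of Fdft1 for 90.9%. Lss and Cyp51 had the largest SDs and were also among the lowest 3 in level. Hmgcs1, Fdps, Fdft1 and Sqle lay in the upper part of this band, at means of 6.94 to 7.75, and no gene was compared at its own level alone. These are descriptions with no test.

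**Figure D5:**
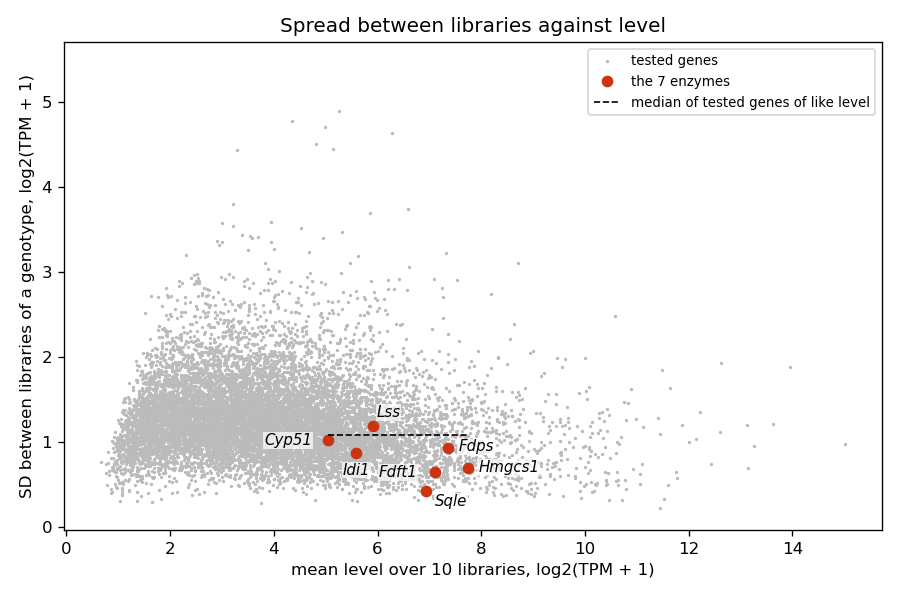
SD between libraries within a genotype against the mean level over 10 libraries, both on the log2(TPM + 1) scale, for all tested genes (grey) and the 7 enzymes (red). The dashed line is the median SD of tested genes of like level, 1.08, and only Lss lies above it.

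The 3 libraries apart held lower levels of 6 of the 7 genes. Relative to the other 7 libraries, the mean log2 level was lower by 1.45 for Lss (log2 difference -1.45), with -1.30 for Cyp51, -1.13 for Hmgcs1, -1.09 for Fdft1, -0.81 for Idi1 and -0.61 for Sqle. The library median over tested genes averaged 3.29 in these 3 libraries and 4.21 in the other 7, a difference of -0.92. Fdps went the other way, at 0.63, with a mean of 232 TPM in those 3 libraries and 179 TPM in the other 7. One of the 3 is wild-type and 2 are knockout, and the part of this split in the genotype differences is shown by the values without them given above.

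Because of that split, co-variation was examined within the other 7 libraries. Pearson correlations of log2(TPM + 1) for the 21 pairs ran from -0.91 to 0.75, with 9 positive and 12 negative, and 0 of 21 passed at a Benjamini-Hochberg adjusted p under 0.05 in an exact permutation test over 5040 orders. At an unadjusted p under 0.05 there were 3 pairs. The smallest p belonged to Fdft1 and Cyp51, which ran in opposite directions (r = -0.91, two-sided exact p = 0.0032, adjusted p = 0.0667, n = 7; Spearman's rho = -0.89, exact p = 0.0123, adjusted p = 0.129). Leaving out the 2 libraries farthest from the median of Fdft1 gave r = -0.65. The largest positive value was between Idi1 and Cyp51 (r = 0.75, exact p = 0.0490, adjusted p = 0.343, n = 7; rho = 0.75, exact p = 0.0663, adjusted p = 0.37), which were both highest in knockout 2. Without the 2 libraries farthest from the median of Idi1, r was 0.87.

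The genes closest in pattern to each enzyme were, by Spearman correlation over all 10 libraries among 10679 named genes, none of the 7 themselves. The top 3 were Tmem200a, Unc5c and Rhoa for Hmgcs1 (rho = 0.98 each), Ddb2, Aggf1 and Fam45a for Idi1 (0.92 to 0.96), and Rp9, Add2 and Ptov1 for Fdps (0.90 to 0.98). They were Senp8, Smcr8 and Txndc17 for Fdft1 (0.98 each), Lamb1, Ppt1 and Plat for Sqle (0.94 to 0.95), Lsm12, Rbfox3 and Pde10a for Lss (0.95 to 0.96), and Med13, Megf9 and Sbf2 for Cyp51 (0.99 each). With 10 libraries and so many genes, values of this size are the top of a long list and share the split between libraries. Over the same 10 libraries the enzymes closest to each other were Hmgcs1 with Lss (rho = 0.82), Hmgcs1 with Fdft1 (0.81) and Fdft1 with Lss (0.70). Many other genes were closer. Among 11743 genes, Lss ranked 557 and Fdft1 650 for Hmgcs1, and Hmgcs1 ranked 199 for Lss and 390 for Fdft1. Lss ranked 1194 for Fdft1, and Fdft1 838 for Lss. Within the 7 libraries outside the split, these 3 pairs had rho of 0.71, 0.43 and 0.43 and Pearson r of 0.37, 0.17 and 0.17.

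Other enzymes of the same route were present as well. All 12 further enzymes described (Acat2, Mvk, Pmvk, Mvd, Tm7sf2, Lbr, Msmo1, Nsdhl, Hsd17b7, Ebp, Sc5d and Dhcr7) were measured, with 6 lower and 6 higher in knockout, a median log2 difference of -0.12, 0 called and 0 at an unadjusted p under 0.05. After median centring and after quantile normalization 5 were lower and 7 higher, and without the 3 libraries apart 8 were lower and 4 higher. Mvk, which phosphorylates mevalonate, had the smallest p of the 12. Across the libraries, wild-type 1 to 5 measured 26.4, 8.38, 0.644, 32.0 and 13.7, while knockout 1 to 5 measured 5.05, 27.9, 11.9, 44.4 and 126 (all TPM), a difference of 1.20 (SE 0.93; limma adjusted p = 0.992). It was 0.49 without wild-type 3, 0.63 without knockout 5 and 0.27 without the 3 libraries apart. The highest value was in knockout 5, and the other 9 libraries were mixed by genotype. Dhcr7, which makes the last double-bond change to cholesterol in a branch of the route, averaged 41.7 ± 39.4 TPM in wild-type libraries. In Satb1-/- libraries it averaged 62.8 ± 32.9 TPM (0.84, SE 0.69). Its difference was 0.51 without wild-type 3 and 1.28 without wild-type 2. Msmo1, listed under its older symbol Sc4mol, stood at 20.4 ± 6.28 and 37.4 ± 28.9 TPM, and Pmvk at 152 ± 109 and 125 ± 83.7 TPM. Tm7sf2 and Ebp were listed at 0 in 1 wild-type library each.

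Genes that sense sterol were expressed and did not pass the test. Of 8, 7 were lower and 1 higher in knockout, against 67.4% of all tested genes lower. The counts were 3 lower and 5 higher after median centring or quantile normalization, and 5 and 3 without the 3 libraries apart. By limma 0 were called, against 0% of all genes, and 0 were at an unadjusted p under 0.05. Srebf2, which encodes SREBP2, had these levels by library: wild-type 1 to 5 measured 52.0, 83.6, 35.7, 106 and 13.0, while knockout 1 to 5 measured 82.3, 54.8, 46.0, 26.2 and 2.45 (all TPM) (log2 difference -0.72, SE 0.83; limma adjusted p = 0.992). Its lowest values were in the 3 libraries apart, and without knockout 5 the difference was 0.05. Scap, the SREBP escort protein, stood at 129 ± 107 and 75.9 ± 36.7 TPM (-0.59, SE 0.64). Its difference was -0.19 without wild-type 4, -0.34 without knockout 3 and -0.94 without wild-type 3. Insig1, which retains SREBP in the endoplasmic reticulum and is itself an SREBP target, stood at 65.2 ± 42.4 and 58.0 ± 22.1 TPM (-0.02, SE 0.64). Stard4, a sterol carrier, was at 0.484 to 26.3 (wild-type) and 0.221 to 15.7 TPM (knockout) (-0.42, SE 0.89), and at 0.21 without wild-type 4.

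Among 10 genes of the isoprenoid branches that lead to other products, 6 were lower and 4 higher (67.4% of all genes were lower), 3 and 7 after median centring, 4 and 6 after quantile normalization, 5 and 5 without the 3 libraries apart, 0 were called and 0 were at an unadjusted p under 0.05. Ggps1, which makes geranylgeranyl diphosphate, averaged 50.7 ± 40.2 TPM in wild-type libraries and 21.9 ± 15.0 TPM in Satb1-/- libraries (-1.06, SE 0.75). The dolichol synthase subunit genes went in opposite directions, Dhdds at 11.4 ± 8.27 and 18.8 ± 7.97 TPM (0.91, SE 0.76) and Nus1 at 29.5 ± 17.0 and 16.4 ± 10.4 TPM (-0.79, SE 0.75). For all 3 the limma adjusted p was 0.992. Leaving out 1 library moved Ggps1 to -0.67 (wild-type 1) or -0.68 (knockout 5), Dhdds to 0.45 (wild-type 4), and Nus1 to -0.51 (wild-type 1), -1.26 (wild-type 5) or -0.47 (knockout 4).

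Of 13 genes of sterol uptake, efflux, storage and turnover, 12 were tested, with 8 lower and 4 higher, 0 called, and 1 lower at an unadjusted p under 0.05, Scarb1. Over all tested genes 67.4% were lower, and 3.31% were at an unadjusted p under 0.05 (2.57% lower). After median centring or quantile normalization 7 were lower and 5 higher, and without the 3 libraries apart 8 and 4. The difference with the smallest p belonged to Scarb1 (chromosome 5, 125277087 to 125341094, minus strand), the scavenger receptor that takes cholesteryl ester from high-density lipoprotein. By library, wild-type 1 to 5 measured 71.1, 40.8, 76.0, 20.7 and 8.12, while knockout 1 to 5 measured 17.4, 2.17, 4.28, 22.3 and 0.827 (all TPM). Wild-type 1 to 3 were above every knockout library, whereas wild-type 4 and 5 fell within the knockout range. The difference was -2.35 (SE 0.86, 95% interval -4.16 to -0.55; limma adjusted p = 0.992), between -1.89 and -2.83 with each library left out in turn. The 6 markers of endothelium and pericytes summed to 59.6, 47.4, 0.65, 24.8 and 3.83 TPM for wild-type 1 to 5 and to 0.577, 6.88, 0.9998, 0.277 and 2.28 TPM for knockout 1 to 5. Of these 6 genes the pericyte gene Rgs5 was the only one tested, at a log2 difference of -2.86 (limma unadjusted p = 0.0058, adjusted p = 0.992). That unadjusted p was smaller than the one of Scarb1, 0.0131. The endothelial genes Cldn5 and Cdh5 were listed at 0 in 9 and 7 libraries. Wild-type 3, the highest library for Scarb1, had one of the lowest sums, and the part of these cells in the Scarb1 values was not tested.

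Npc2, the lysosomal carrier that hands on cholesterol taken up by the cell, had these levels by library: wild-type 1 to 5 measured 2.48, 11.7, 2.08, 19.5 and 7.64, while knockout 1 to 5 measured 6.39, 24.6, 37.9, 15.1 and 35.1 (all TPM) (1.49, SE 0.78; limma adjusted p = 0.992). Its 4 highest values were in knockout 2, 3 and 5 and wild-type 4, which were also the 4 libraries with the highest summed level of microglia markers (1873, 1568, 2179 and 1225 TPM, against 0.779 to 515 TPM elsewhere), and the part of those cells in the Npc2 values was not tested. Nr1h2, a sterol-responsive nuclear receptor, stood at 30.1 ± 16.8 and 15.5 ± 10.9 TPM (-1.08, SE 0.76; -0.70 without knockout 1 and -1.76 without the 3 libraries apart). Cyp46a1, the neuronal enzyme that hydroxylates cholesterol for export, was at 10.2 to 60.4 (wild-type) and 5.68 to 40.3 TPM (knockout). Nr1h3 was listed at 0 in 6 libraries and was the member not tested.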

How the data were processed

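RNA was sequenced from 5 wild-type and 5 Satb1-/- samples after cDNA amplification, per the labels' protocols. The authors deposited log10(TPM + 1) values for 23746 entries, and per the submitters' processing notes TopHat2 2.0.10, Cufflinks and mm10 were used. How reads were counted, and whether by strand, is not given in the sources used here. The log10 scale was read from the values: back-transformed, each library summed to 1000000 TPM, so depth is unknown. Entries with a number for a symbol (26, 0.0438% to 0.198% of TPM) were left out and 240 repeated symbols summed. Genotype was tested with limma 3.58.1 in R 4.3.3 on log2(TPM + 1), with the variance trended on the mean and p-values adjusted by Benjamini-Hochberg over all 11744 tested genes at 0.05. Libraries are samples from different litters. The text names all 7 members, further enzymes of the route, the 3 smallest p of each other list with some chosen for their role (Insig1, Cyp46a1), and the 3 most similar genes per member. The members and lists were chosen with earlier results of these data known. At least 1 gene of the route is not reported here, and list counts leave it out. Alternatives covered pseudocount, filter, scaling, replicate block, weights, variance model, threshold and libraries left out.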

Additional observations from a re-analysis of the deposited data

Results flagged for a closer look

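The level of Hmgcs1 in wild-type 5, 94.3 TPM, lay far below the other 4 wild-type libraries, which were at 240 to 309 TPM. The level of Fdft1 in the same library, 59.7 TPM, was likewise far below the other 4, at 171 to 221 TPM. Of 14 groups examined (7 genes in each genotype), these were the 2 with a value set apart from the rest, by Dixon's ratio at a level where chance marks about 1 in 20 groups. Wild-type 5 is among the 3 libraries apart. Its library median over tested genes was the lowest of the wild-type group, at 3.33 on the log2(TPM + 1) scale. Relative to the library median on that scale, Hmgcs1 was at 3.24 in wild-type 5 against 3.46 to 4.08 in the other 4. Fdft1 was at 2.59 against 3.02 to 3.79. Both were still the lowest but lay closer to the rest, and Dixon's ratio was not computed on these values. Without wild-type 5 the log2 differences were -0.37 for Hmgcs1 and -0.70 for Fdft1, and neither passed the limma test.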

How the results depend on the processing

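No gene of the 22 followed through 23 alternatives was called under any, at a smallest limma adjusted p of 0.556, and 15 kept their direction in all of them (Stard4 was not tested at the 5 TPM filter). Over all genes, the count called was 0 as deposited and 1 with at least 5 TPM in 5 libraries, without the mean-variance trend, with robust variance or at an adjusted p under 0.10. It was 3 with library weights, and 0 to 1 with each library left out. The number of the 7 members lower in knockout was 5, against 1 after median centring, 2 after quantile normalization, and 3 with library weights, without the 3 libraries apart or with those as a term. It was 2 to 5 with each library left out. Differences changed sign to 0.31 (Hmgcs1), 0.31 (Fdps), 0.017 (Fdft1) and 0.34 (Lss) after median centring, and to 0.012 (Hmgcs1), 0.11 (Fdps) and 0.28 (Lss) after quantile normalization. They did so to 0.22 (Fdps) and 0.45 (Lss) with library weights, to 0.0065 (Hmgcs1) and 0.26 (Lss) without the 3 libraries apart, and to 0.17 (Hmgcs1) and 0.27 (Lss) with those as a term. The cause was not tested. With each library left out in turn, the range was -0.37 to 0.18 for Hmgcs1, -0.31 to 0.31 for Fdps, -0.42 to 0.43 for Lss, -0.26 to 0.61 for Cyp51, -1.16 to 0.051 for Srebf2 and -0.97 to 0.21 for Stard4. With the replicate number as a block, 0 genes were called, 830 were at an unadjusted p under 0.05 against 389 without it, and 5 members were lower. The labels give same-numbered libraries only a number in common. Their deviations correlated at -0.032 to 0.36, above 0.1 for 3 of 5 numbers and positive for 4, and 5 of 10 libraries correlated best with their own number, which is a hint from the data and not the design. Depth is unknown, and the spread between libraries limits what could be seen.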

Other observations

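Fatty acid synthesis, the other branch of lipid building under SREBP control, was described by 8 genes, all tested, with 5 lower and 3 higher in knockout as deposited, 3 and 5 after median centring, 4 and 4 after quantile normalization, 6 and 2 without the 3 libraries apart, with 0 called by limma and 0 at an unadjusted p under 0.05. Over all tested genes 67.4% were lower. Acaca, which makes malonyl-CoA, averaged 43.8 ± 12.6 TPM in wild-type libraries and 28.4 ± 29.6 TPM in Satb1-/- libraries (SD, n = 5 each). Its log2 difference was -1.17 (SE 0.75), and -0.59 without knockout 5. The elongase gene Elovl6 stood at 83.2 ± 53.5 and 40.8 ± 15.7 TPM (-0.88, SE 0.63; -0.56 without wild-type 1), and the desaturase gene Fads1 at 119 ± 71.1 and 69.0 ± 21.7 TPM (-0.63, SE 0.58; -0.34 without wild-type 1). For all 3 the limma adjusted p was 0.992. Named after their values were seen, Fasn, which encodes fatty acid synthase, reached its highest level of the 10 libraries, 425 TPM, in knockout 5. That library also held the highest levels of Mvk, Acat2 and Scd2. Other genes of the lists went the other way there. Knockout 5 held the lowest levels of Lss (15.4 TPM), Cyp51 (11.2 TPM) and Srebf2.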
